A study of Homo sapiens with 3 samples.

Results

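To examine how genes of the ATF4 and unfolded protein responses were expressed after depletion of PRMT1, the main enzyme that places asymmetric dimethyl marks on arginine, 39 genes were followed on expression arrays of HCT116 cells, an established human colorectal carcinoma line. The 39 genes were chosen by name out of 41749 gene names on the array. The rule used names and not measured values, though it was set with earlier results of these data known. These genes have known roles in the amino acid response, serine synthesis, endoplasmic reticulum (ER) folding or ER stress sensing. They were divided into an ATF4 branch of 21 genes and an ER branch of 18 genes. The series held 3 one-colour Agilent arrays, 1 for cells given a negative control (NC) and 1 each for the knockdowns PRMT1-KD1 and PRMT1-KD2 (KD1 and KD2 below). All 3 groups were HCT116 cells grown in the same medium, and the labels describe PRMT1 siRNAs delivered by lipid transfection, whereas the results text of the study speaks of short hairpin RNAs and of a scrambled control. The labels do not say which oligonucleotide gave which knockdown, nor how long after transfection RNA was taken. The slide and its scan were common to the 3 arrays, so neither separates the groups. With 1 array per group there is no replicate, so the differences below have no test and no p-value, and they describe these 3 RNA samples.

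ATF4 is a transcription factor that is made mainly when translation initiation factor eIF2 is phosphorylated, as happens when amino acids run short or when unfolded proteins collect in the ER, and it switches on genes for amino acid synthesis, amino acid import and feedback on the stress itself. The ER has sensors of its own: PERK (encoded by EIF2AK3) phosphorylates eIF2, IRE1 (ERN1) splices the XBP1 mRNA, and ATF6 is cut in the Golgi to release a transcription factor. XBP1 and ATF6 then drive genes for ER chaperones, disulphide formation and disposal of misfolded proteins. ATF4, XBP1 and ATF6 are controlled largely after transcription, by translation, splicing or cleavage, which these arrays did not measure.

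PRMT1 itself, the targeted gene, had a normalised level of 6.03 in NC, 2.75 in KD1 and 1.48 in KD2. A normalised level here is the log2 intensity of a gene's brightest probe minus the 75th percentile of its array, so it can be compared between arrays but not between genes. PRMT1 signal was thus 10.3% of the control in KD1 and 4.26% in KD2. Between 40.7% and 42.3% of probes were well above background on the arrays, and no spot was saturated. Of the 7 colorectal epithelial markers checked, 6 were above background on all arrays, VIL1 being the exception, and of 11 markers of leukocytes, fibroblasts and endothelium 6 were above background on none and 4 on all (CD14, COL1A1, CDH5 and VWF). Of these 4, the endothelial marker CDH5 was past 1.5-fold in KD1 (log2 differences of 1.46 in KD1 and 0.55 in KD2) and the fibroblast marker COL1A1 in KD2 (0.26 and 0.62), while CD14 (0.03 and 0.58) and VWF (-0.13 and 0.21) were inside it, and the leukocyte marker PTPRC was above background only in KD2. The part of other cell types in the results below was not tested. In RNA from whole cultures, fewer cells expressing a gene and less of its RNA per cell cannot be told apart.

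Of the 39 genes, 37 were measured. VLDLR, a lipoprotein receptor induced by ATF4, was not well above background on any array, and CALR, the lectin chaperone calreticulin, had its only probe marked as non-uniform on the KD1 array. With that spot kept, CALR had levels of 9.13 in NC, 8.65 in KD1 and 8.73 in KD2. For the 37 measured genes the scanner software gave a median spot error of 0.144 and a highest of 0.315 on the log2 scale. Repeated spots, present for 5 of them (9 to 10 spots each), had SDs between 0.0224 and 0.0625. Both errors are technical and leave out the variation between cultures.

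The promoters of both branches, taken from RefSeq (GRCh38.p14) as 250 bases before to 50 bases after each start site, were searched on both strands for the sequence elements these pathways are known to use. Of the 39 genes, 36 had an entry, and PSPH, SHMT2 and SLC7A11 did not. The C/EBP-ATF response element, bound by ATF4 with a C/EBP partner and searched as TGATGNAAN, was present in 4 of 18 ATF4 branch promoters (22.2%), in 1 of 18 ER branch promoters (5.56%) and in 3.67% of all 27305 promoters. The ER stress response element, bound by ATF6 and XBP1 together with NF-Y and searched as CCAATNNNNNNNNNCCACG, was present in 6 of 18 ER branch promoters (33.3%), in 0 of 18 ATF4 branch promoters and in 0.0806% of all promoters. Its second form, ATTGG and CCACG with 1 base between them, was found in 2 ER branch promoters (11.1%), those of SDF2L1 and HERPUD1, against 0.0549% of all promoters. TGACGTGG, the unfolded protein response element, was in no promoter of either branch and in 0.795% of all. Both the elements and the genes were chosen as known parts of these pathways, so the higher shares are not independent support for either. A match is a description of the letters and not evidence of binding in these cells.

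The following stretches are examples of these elements, from ASNS and CHAC1 for the ATF4 branch and HSPA5, HSP90B1, XBP1, CANX and HERPUD1 for the ER branch. Of these genes only CHAC1 and HSPA5 were past 1.5-fold against NC, both lower. The match of SLC7A1, a gene higher than NC by 1.5-fold or more in both knockdowns, is not shown. Each is written 5′ to 3′ along the strand of its gene, with the matched element in capitals. ASNS lies on the minus strand (chr7:97872429-97872518), with the match at -68 to -60 from the start, and CHAC1 on the plus strand (chr15:40953231-40953310), with the match on the opposite strand at -210 to -202.
ASNS: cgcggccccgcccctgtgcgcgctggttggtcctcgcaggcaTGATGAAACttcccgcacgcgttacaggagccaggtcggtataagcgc
CHAC1: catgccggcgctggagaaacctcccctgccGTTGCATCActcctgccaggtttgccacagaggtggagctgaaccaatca
In HSPA5 (minus strand, chr9:125241364-125241453) the element began at -66, and in XBP1 (minus strand, chr22:28800570-28800659) at -52. HSP90B1 (plus strand, chr12:103930205-103930349) held 2 matches, the second on the opposite strand, and CANX (plus strand, chr5:179698749-179698828) held 1 that began at -151.
HSPA5: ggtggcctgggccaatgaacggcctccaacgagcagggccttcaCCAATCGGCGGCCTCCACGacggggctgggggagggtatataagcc
XBP1: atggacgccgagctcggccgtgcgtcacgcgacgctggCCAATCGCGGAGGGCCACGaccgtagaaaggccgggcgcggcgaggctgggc
HSP90B1: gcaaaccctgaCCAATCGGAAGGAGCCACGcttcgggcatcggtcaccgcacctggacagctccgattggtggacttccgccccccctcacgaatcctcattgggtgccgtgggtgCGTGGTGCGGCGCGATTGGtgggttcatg
CANX: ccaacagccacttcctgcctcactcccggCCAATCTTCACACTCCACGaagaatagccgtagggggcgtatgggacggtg
HERPUD1 (plus strand, chr16:56931952-56932061) was the member with elements of both kinds, a C/EBP-ATF element on the opposite strand at -177 to -169 and the second ER element at -117 to -107.
HERPUD1: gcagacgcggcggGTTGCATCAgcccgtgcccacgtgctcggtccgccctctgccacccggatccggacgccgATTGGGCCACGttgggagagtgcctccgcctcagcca
The other matches lay in SLC7A1 and SLC3A2 for the C/EBP-ATF element, both just after the start site, in CALR and ERO1LB for the first ER element, and in SDF2L1 for the second.

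Against NC, the ATF4 branch had more genes past 1.5-fold upward than downward in KD1, while the split in KD2 depended on how the arrays were scaled. In KD1, 6 of 20 measured genes were higher by 1.5-fold or more (CEBPB, MTHFD2, SLC7A11, SLC7A1, DDIT4 and PPP1R15A) and 1 was lower (CHAC1), while 12.4% of all 19231 genes measured in this comparison were higher and 14.0% lower. In KD2, 4 of 20 were higher (MTHFD2, SLC7A1, DDIT4 and PPP1R15A) and 3 were lower (PHGDH, PSAT1 and CHAC1), with 9.68% of all 19421 genes higher and 10.6% lower. The KD2 split was 2 higher and 5 lower with median scaling, 5 and 2 with quantile normalization, 6 and 1 with spike-in scaling, and 5 and 1 with the deposited values left unscaled. Of all genes in KD2, 6.05% were higher and 18.1% lower with median scaling. These shares were 10.2% and 10.1% with quantile normalization, and 13.4% and 7.44% with the unscaled values. The median difference of the branch was 0.18 in KD1, beside -0.07 over all genes, and -0.02 in KD2, beside -0.05 over all genes. Both comparisons use the same NC array, so an error in it would move both the same way. The calls of MTHFD2, SLC7A1, DDIT4 and PPP1R15A in KD1 and of PHGDH, DDIT4 and PPP1R15A in KD2 held under all 9 alternatives applied to single genes, and those of the other ATF4 branch genes were lost in at least 1. Of those 9, the filter for detection on all arrays could not move a member, as all 37 measured were detected on each. Averaging over probes could not move a gene with 1 detected probe. Keeping outlier-marked spots moved the KD1 median of all genes by only -0.0074. The shares over all genes themselves depend on how the arrays are scaled: with spike-in probes 48.4% were higher and 1.97% lower in KD1, and 22.4% and 3.64% in KD2, and with the deposited values left unscaled the KD1 shares were 32.4% and 3.6%.

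The ER branch had a similar split in both knockdowns under 75th percentile scaling, though its KD2 count depended on the processing. In KD1, 5 of 17 measured genes were higher (EIF2AK3, ERN1, DNAJB9, ERO1L and SEL1L) and 1 was lower (HSPA5). In KD2, 4 of 17 were higher (EIF2AK3, DNAJB9, ERO1LB and SEL1L) and HSPA5 was again the gene that was lower. The branch median was 0.11 in KD1 and 0.18 in KD2. The calls of ERN1, DNAJB9 and ERO1L in KD1 and of DNAJB9 and ERO1LB in KD2 held under the same 9 alternatives. These counts stand beside the same shares of all genes, 12.4% and 14.0% in KD1 and 9.68% and 10.6% in KD2. The KD2 split was 2 higher and 1 lower with median scaling, beside 6.05% and 18.1% of all genes. It was also 2 and 1 with normexp background correction, beside 4.1% and 5.01%, and 6 and 0 with spike-in scaling, beside 22.4% and 3.64%. In KD1 the split was 5 and 1 with median scaling (16.5% and 9.61%) and 4 and 1 with normexp (8.64% and 4.99%). The SEL1L calls in both knockdowns depended on which of its probes was taken. Limits of the SEL1L and ERO1LB probes are given below.

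**Figure D1:**
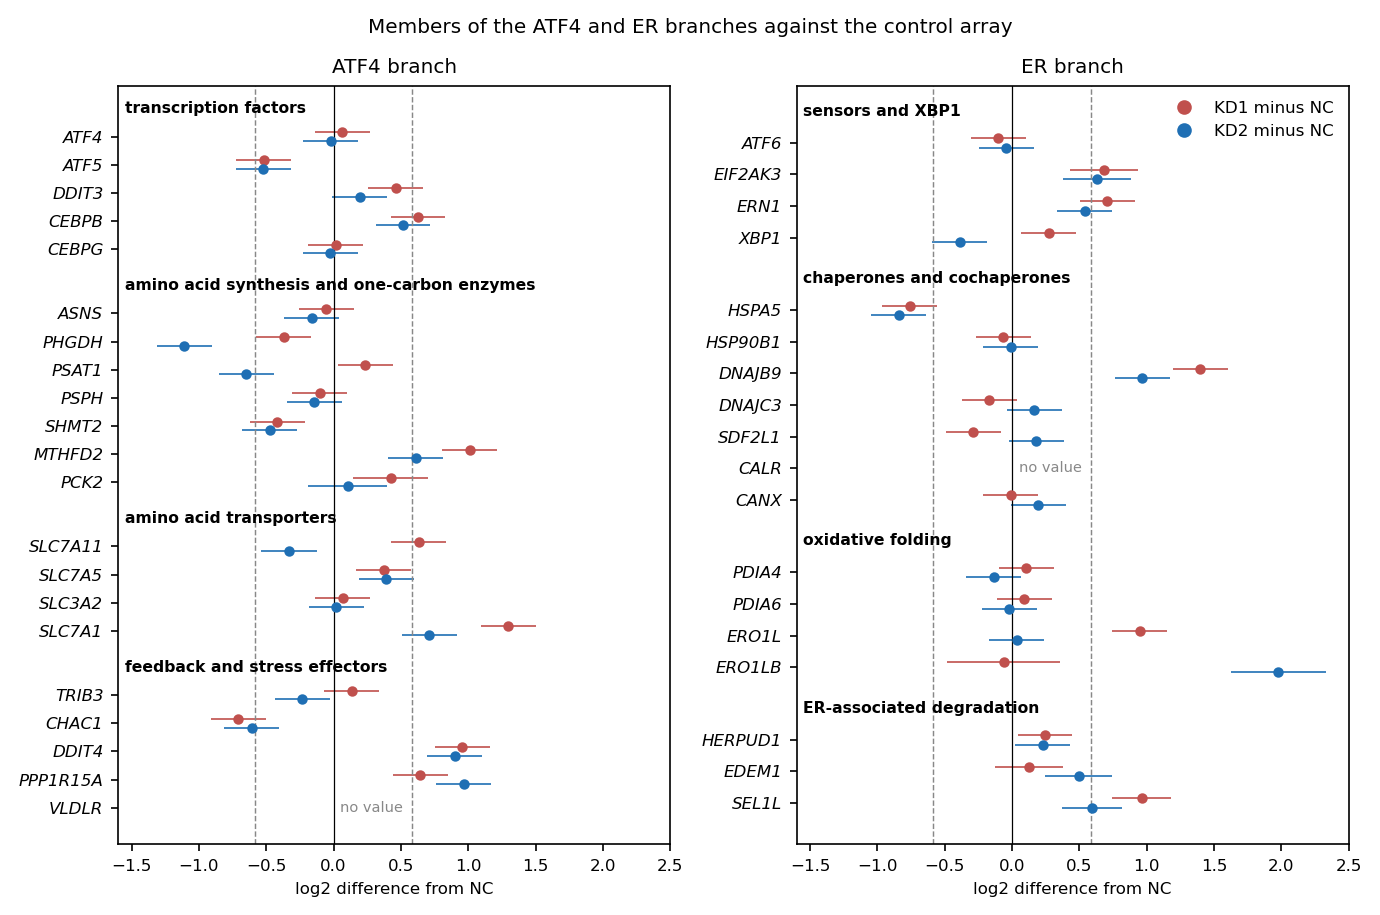
Log2 difference of each gene from NC (x axis) in KD1 (red) and KD2 (blue), grouped by role, for the ATF4 branch (left) and ER branch (right), with 1 array per group; bars are the scanner software's spot errors of both arrays combined, dashed lines mark 1.5-fold, and "no value" marks VLDLR and CALR. Under this scaling ATF4 sits near 0 in both knockdowns (its KD1 difference is 0.70 with spike-in scaling), with SLC7A1 (1.30 and 0.71) and DNAJB9 (1.40 and 0.97) far to the right and HSPA5 (-0.76 and -0.84) to the left.

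Among the transcription factors, ATF4 mRNA was nearly the same on the 3 arrays under 75th percentile scaling, though not under every scaling. Its level, read by a probe at chr22:39918577-39918636 (hg19, the build the files use for probe positions), was 10.19 in NC, 10.26 in KD1 and 10.17 in KD2, a difference from NC of 0.07 and -0.02. The KD1 difference was 0.40 with quantile normalization, 0.48 with the deposited values left unscaled and 0.70, past the line, with spike-in scaling, and the KD2 difference lay between -0.17 (median scaling) and 0.27 (spike-in scaling). DDIT3, which encodes the pro-apoptotic factor CHOP and is a target of ATF4, was at 3.23 in NC, 3.69 in KD1 and 3.43 in KD2. It was highest in KD1 but inside 1.5-fold in both comparisons, with differences of 0.46 and 0.20, and its KD1 difference was past the line with spike-in scaling, with the unscaled values (0.88) and, just, with normexp (0.59). CEBPB, a C/EBP factor that can pair with ATF4, was at 5.90 in NC, 6.53 in KD1 and 6.42 in KD2. The difference of CEBPB was 1.54-fold in KD1 and 1.43-fold in KD2, so the 2 knockdowns fell on opposite sides of the 1.5-fold line while differing from each other by 0.11. CEBPG, another C/EBP partner, was within 0.03 of NC on both arrays. ATF5, an ATF4-related factor whose own translation also depends on eIF2, was lower in both by 0.52, inside the line.

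The genes for amino acid synthesis and mitochondrial one-carbon metabolism did not move together. MTHFD2, a mitochondrial folate enzyme, was at 3.24 in NC, 4.25 in KD1 and 3.85 in KD2 (probe at chr2:74441985-74442044). It was 2.01-fold higher in KD1 and 1.53-fold higher in KD2. PHGDH, which catalyses the first step of serine synthesis, was at 4.09 in NC, 3.72 in KD1 and 2.98 in KD2 (chr1:120285529-120285588). PHGDH was thus inside the line in KD1, at 77.3% of NC, and at 46.3% of NC in KD2. PSAT1, the next enzyme of that route, was at 3.55 in NC, 3.78 in KD1 and 2.90 in KD2. In KD2 it was at 63.8% of NC, and in KD1 it was above NC by 0.23, inside the line. PSPH, the last enzyme of serine synthesis, differed from NC by -0.10 in KD1 and -0.14 in KD2. SHMT2, which passes a carbon unit from serine to mitochondrial folate, was lower by 0.42 and 0.47, inside the line in both. ASNS, asparagine synthetase and the classic ATF4 target whose promoter element is shown above, was at 6.48 in NC, 6.43 in KD1 and 6.32 in KD2. The ASNS differences of -0.05 and -0.16 were within the spot error of its arrays combined. PCK2, mitochondrial PEP carboxykinase, was above NC by 0.42 in KD1 and 0.10 in KD2.

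Of the amino acid transporters, SLC7A1, which imports arginine and lysine, had the largest difference from NC of the measured ATF4 branch genes in KD1. It was at 1.52 in NC, 2.81 in KD1 and 2.23 in KD2 (chr13:30084093-30084152), or 2.46-fold and 1.64-fold above NC. SLC7A11, the cystine importer, was at 1.66 in NC, 2.29 in KD1 and 1.33 in KD2. Its KD1 value lay above NC by 1.55-fold and its KD2 value below NC by 0.33 on the log2 scale, the latter inside the line. SLC7A5, the large neutral amino acid transporter LAT1, was above NC by 0.37 and 0.39. SLC3A2, the heavy chain that SLC7A5 and SLC7A11 share, differed by 0.07 and 0.02.

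The feedback and stress effectors held genes past the line in both directions. DDIT4, an inhibitor of mTORC1 signalling, was at 2.29 in NC, 3.25 in KD1 and 3.19 in KD2, 1.94-fold and 1.87-fold above NC. PPP1R15A (GADD34), which directs a phosphatase to eIF2 and so ends the response, was at 4.65 in NC, 5.30 in KD1 and 5.62 in KD2. It was 1.56-fold and 1.96-fold above NC. CHAC1, an enzyme that degrades glutathione and is induced by ATF4 with CHOP, was at 2.78 in NC, 2.08 in KD1 and 2.18 in KD2. CHAC1 was lower in both, at 61.2% and 65.7% of NC, and its second probe was not above background on any array. Its KD1 call was lost in 3 of the 9 alternatives, with a weakest log2 difference of -0.07 under spike-in scaling, and its KD2 call in 5, with a weakest of -0.32. TRIB3, a pseudokinase that restrains ATF4, differed by 0.14 and -0.23.

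**Figure D2:**
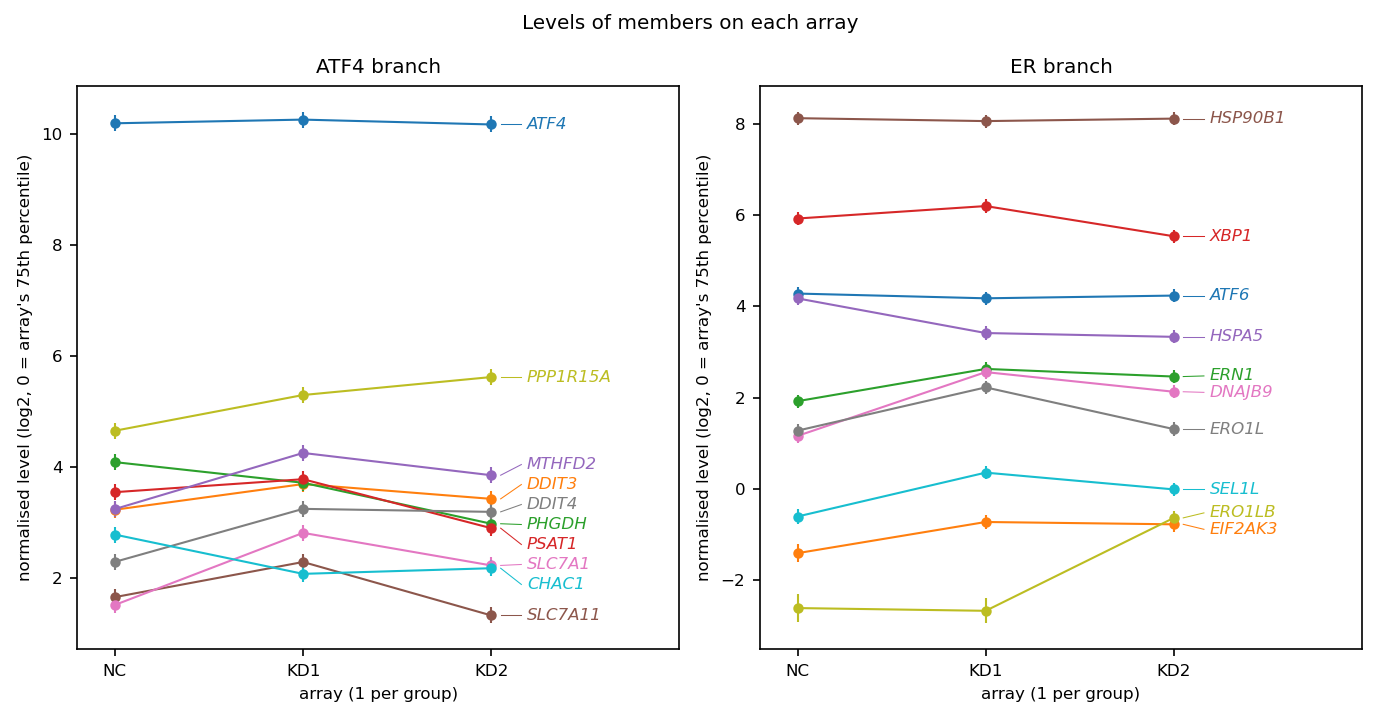
Normalised level (y axis, log2, 0 is the 75th percentile of the array) of 10 ATF4 branch genes (left) and 10 ER branch genes (right) on the NC, KD1 and KD2 arrays, 1 array each; bars are the scanner software's spot error, lines join the values of 1 probe, and heights are not comparable between genes. ATF4 and HSP90B1 run flat under this scaling but not under spike-in scaling (KD1 differences of 0.70 and 0.57), HSPA5 steps down from 4.17 to 3.42 and 3.33, and PHGDH and PSAT1 are lowest in KD2.

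Of the ER sensors, EIF2AK3 (PERK) was at -1.41 in NC, -0.73 in KD1 and -0.78 in KD2, and both knockdowns were higher, by 1.61-fold and 1.55-fold. With normexp background correction, which damps differences of dim probes, these log2 differences were 0.26 and 0.22, inside the line. ERN1 (IRE1) was at 1.92 in NC, 2.63 in KD1 and 2.46 in KD2. It was past the line in KD1, at 1.63-fold, and inside it in KD2, at 1.45-fold, and its second, dimmer probe gave 0.52 and 0.44. ATF6 was at 4.28 in NC, 4.18 in KD1 and 4.24 in KD2, differences of -0.10 and -0.04. XBP1 was at 5.92 in NC, 6.20 in KD1 and 5.54 in KD2. XBP1 was above NC by 0.27 in KD1 and below it by 0.39 in KD2, both inside the line, and the value of its 1 probe was not resolved into spliced and unspliced forms.

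Among the ER chaperones, the lower level of HSPA5 stood beside a higher level of DNAJB9. HSPA5 encodes BiP, the ER Hsp70 chaperone that also holds the sensors inactive, and its level was 4.17 in NC, 3.42 in KD1 and 3.33 in KD2 (chr9:127997149-127997208). HSPA5 was at 59.1% of NC in KD1 and 55.8% in KD2. It stayed below NC under all scalings tried, but its log2 differences were inside the line with spike-in scaling, at -0.12 and -0.56, and in KD1 also with the deposited values left unscaled, at -0.34. DNAJB9 (ERdj4), a BiP cochaperone and a known target of XBP1, was at 1.16 in NC, 2.56 in KD1 and 2.13 in KD2 (chr7:108214515-108214574). At 2.64-fold and 1.96-fold above NC, DNAJB9 had the largest difference of the 37 genes in KD1. The other chaperones lay within 1.5-fold. HSP90B1 (GRP94), with 2 ER stress elements in its promoter, was at 8.12 in NC, 8.06 in KD1 and 8.11 in KD2, within the spot error on all arrays, though its KD1 difference was 0.21 with quantile normalization and 0.57 with spike-in scaling. DNAJC3 differed by -0.17 and 0.16 and SDF2L1 by -0.29 and 0.18, both being cochaperones of BiP. CANX, the membrane-bound lectin chaperone calnexin, differed by -0.01 and 0.19 on its brighter probe, whereas a dimmer probe, not above background in NC, was higher in KD1 and KD2 than in NC by at least 1.18 and 0.90 on the log2 scale. Of the 5 measured members whose promoters hold the first ER stress element, HSPA5 was past the line below NC in both knockdowns under 75th percentile scaling. ERO1LB was past it above NC in KD2, from a level close to background in NC. HSP90B1 and CANX (brighter probe) were near NC, and XBP1 lay on either side of it, all inside the line. CALR, which also holds this element, differed by -0.48 and -0.40 with its marked KD1 spot kept.

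The ER oxidases differed between the knockdowns. ERO1L (current symbol ERO1A), which reoxidises protein disulphide isomerase, was at 1.28 in NC, 2.22 in KD1 and 1.31 in KD2. It was 1.93-fold higher in KD1 and differed from NC by 0.03 on the log2 scale in KD2, and it was read by 10 spots on each array. ERO1LB (ERO1B), the second such oxidase, was at -2.61 in NC, -2.67 in KD1 and -0.64 in KD2, near the background limit on the first 2 arrays. Its 3.94-fold difference in KD2, the largest of any member in that comparison, therefore rests on 1 spot per array close to background, and a second probe was not above background on any array. With normexp background correction the KD2 difference was 0.64. The isomerases PDIA4 (0.11 and -0.13) and PDIA6 (0.09 and -0.02) lay close to NC.

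Of the genes for ER-associated degradation, SEL1L, the scaffold of the HRD1 ubiquitin ligase, was at -0.61 in NC, 0.36 in KD1 and -0.01 in KD2. Its brightest probe was 1.95-fold and 1.51-fold above NC, but a second detected probe differed by -0.16 and 0.00, and the mean over its probes was not past the line in either knockdown. HERPUD1, a membrane adaptor of the same machinery, was above NC by 0.24 and 0.23, and EDEM1, a mannosidase-like factor that marks glycoproteins for disposal, by 0.13 and 0.49.

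Set against each other, a comparison that does not use the NC array, the knockdowns differed past 1.5-fold in 4 ATF4 branch genes, all for amino acid synthesis or import. PSAT1 was 1.84-fold, PHGDH 1.67-fold, SLC7A11 1.95-fold and SLC7A1 just 1.5-fold higher in KD1 than in KD2, and no ATF4 branch gene was lower by 1.5-fold. These 4 of 20 genes stand beside 8.94% of all 19544 genes measured that were higher in KD1 and 9.66% that were lower. The SLC7A1 difference, 0.59, lay on the line itself, whereas the calls of the other 3 held under the 9 alternatives. All 7 synthesis and one-carbon enzymes were higher in KD1 than in KD2, with a median of 0.32, the smallest difference being 0.04 for PSPH and the next 0.06 for SHMT2. PSPH and SHMT2 changed side when arrays were scaled on probes above background on all arrays, PSPH also under quantile normalization, and PCK2 under normexp. Over the branch, 17 of 20 genes were higher in KD1 than in KD2, beside 49.3% of all genes. This count was 10 and 12 under the first 2 of those settings, 18 with normexp, 19 with median scaling and 20 with spike-in scaling. The median of all genes moved too, from -0.01 to -0.11 under the first setting and to 0.34 with spike-in scaling. The branch median lay 0.11 above that of all genes in all 3 of these, and 0.07 above it under quantile normalization. The share of all genes above 0 was not computed for the other settings. In the ER branch, XBP1 was 1.58-fold and ERO1L 1.89-fold higher in KD1, and ERO1LB was 4.10-fold lower, with a median of 0.05.

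**Figure D3:**
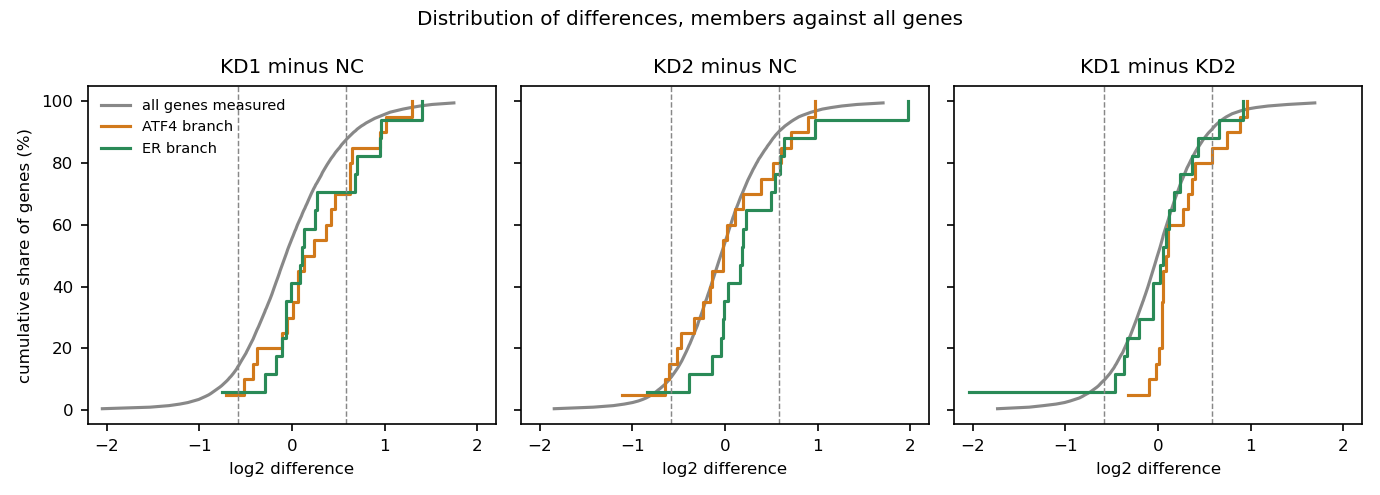
Cumulative share of genes (y axis, %) by log2 difference (x axis) for KD1 minus NC, KD2 minus NC and KD1 minus KD2, for all genes measured (grey), 20 ATF4 branch genes (orange) and 17 ER branch genes (green), with dashed lines at 1.5-fold. In KD1 minus NC both branches run to the right of all genes, with medians of 0.18 and 0.11 against -0.07, and in KD2 minus NC the ATF4 branch follows all genes, at -0.02 against -0.05.

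The other genes of these pathways, 77 in 6 lists, were counted in the same way. Of the eIF2 kinases, eIF2 and eIF2B subunits, which lie upstream of ATF4, 0 of 11 were higher and 1 was lower in KD1, and 1 was higher (EIF2S3, the gamma subunit of eIF2, by 0.77) and 0 lower in KD2. These counts stand beside 12.4% and 14.0% of all genes in KD1 and 9.68% and 10.6% in KD2. The EIF2S3 value rests on 1 spot per array close to background, at -2.31 in NC. The gene that was lower was EIF2AK2 (PKR), the kinase activated by double-stranded RNA, at 4.64 in NC, 3.83 in KD1 and 4.21 in KD2. Its differences were -0.81 and -0.43, and -0.59 and -0.23 on a second probe. EIF2AK1 and EIF2AK4 (GCN2, the amino acid sensor) were inside the line in both.

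The cytosolic aminoacyl-tRNA synthetases, which ATF4 induces as a group, had 0 of 12 past the line in KD1, and 0 higher and 2 lower (EPRS and WARS) in KD2, while 12.4% and 14.0% of all genes were higher and lower in KD1 and 9.68% and 10.6% in KD2. The 2 lower genes of 12 are near that background share. Their median difference was 0.10 in KD1 and -0.20 in KD2, and EPRS and WARS were also the 2 that were higher in KD1 than in KD2, by 0.93 and 0.78. Of the further ATF4-dependent genes, 17 of 22 were measured, with 6 higher (ATF3, CTH, SLC38A2, GPT2, STC2 and MTHFD1L) and 4 lower (ALDH1L2, SLC6A9, SLC43A1 and EIF4EBP1) in KD1, beside 12.4% and 14.0% of all genes, and 4 higher (ATF3, CTH, SLC38A2 and KLHL24) and 3 lower (NUPR1, SLC6A9 and EIF4EBP1) in KD2, beside 9.68% and 10.6%. Their medians were 0.43 and -0.04. KLHL24 was below background in NC and ALDH1L2 in KD1, so those values were set to the lowest signal above background. GDF15, a stress cytokine, had its probe marked on the KD1 array and was not counted.

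The 3 pathway genes with the highest mean difference from NC all came from that list. ATF3, a stress-induced repressor, was at 6.97 in NC, 8.10 in KD1 and 8.30 in KD2 on its brightest probe, but its other 3 probes gave differences of 0.28, -0.34 and -0.53 in KD1 and of 0.83, 0.74 and 0.33 in KD2. The KD1 probes of ATF3 thus pointed both ways, and the KD2 probes all lay above NC. CTH, which makes cysteine from cystathionine, was at -0.45 in NC, 0.59 in KD1 and 0.63 in KD2, and so 2.07-fold and 2.11-fold above NC. SLC38A2 (SNAT2), a neutral amino acid transporter, was at 5.97 in NC, 6.67 in KD1 and 6.68 in KD2, and 0.97 and 0.44 above NC on its second probe. Among the 3 lowest were NUPR1, a stress-induced chromatin protein (-0.58 and -1.25), and SLC6A9, a glycine transporter (-0.88 and -0.68). NUPR1 was close to background in KD2, at a level of -2.56.

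The remaining ER lists held few genes past the line. Of 13 further chaperones and folding enzymes, 1 was higher (HSPA13) and 0 lower in KD1, and 0 higher and 1 lower (MANF) in KD2, with medians of 0.01 and 0.08. Of 12 further degradation and translocation genes, 2 were higher (SYVN1 and VIMP) and 1 lower in KD1, and 0 higher and 2 lower, EDEM3 among them, in KD2. Of 7 further sensors and processing proteins, 1 was lower in KD1 (ERN2, below background there) and none was past the line in KD2. With 7 to 13 genes in a list, these counts lay within 2 genes of what the shares over all genes give.

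**Figure D4:**
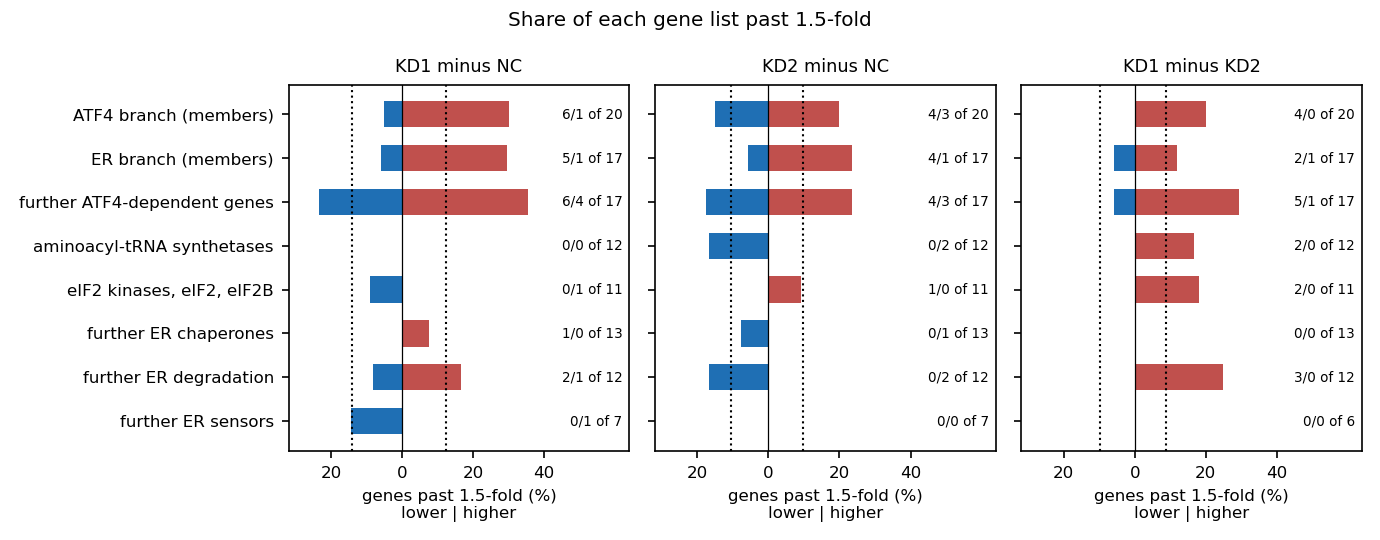
Share of each list (x axis, % of its measured genes) higher (red, right) or lower (blue, left) by 1.5-fold in KD1 minus NC, KD2 minus NC and KD1 minus KD2; numbers give genes higher and lower of those measured, and dotted lines mark the shares over all genes (12.4% and 14.0% in the first panel). The member branches reach 30.0% and 29.4% higher in the first panel, while the tRNA synthetase list has 0 genes past the line there and 2 of 12 lower in the second.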

How the data were processed

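Total RNA of HCT116 cells was labelled with Cy3 and hybridised to Agilent 60-mer arrays (probe positions on hg19). Per the file headers, the deposited values are spot intensity, background-subtracted and detrended within each array by Agilent Feature Extraction 10.7.1.1 (version per the submitters' processing notes), and not scaled between arrays. Background subtraction makes differences of dim spots uncertain, and values below the detection limit are surrogates. The deposited value table holds the mean intensity per probe.

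Control spots and spots marked as outliers were left out, which removed 130 of 58201 probes. Log2 intensity was averaged over spots and reduced by the 75th percentile of the array. A gene was its brightest probe by mean over the 3 arrays, knockdowns included. It was counted if 1 or more of the compared arrays had it well above background, with values below background set to the lowest signal above it. The 1.5-fold line follows the study's methods, whose p-value could not be computed from 1 array per group. The study's methods name 2 negative controls, of which 1 was analysed here. Scripts were tested on simulated data. Python 3.11.15, pandas 2.3.3, R 4.3.3 and limma 3.58.1 (normexp) were used, with 12 alternatives. Members and gene lists were chosen with earlier results of these data known. Values were printed on each array for members past 1.5-fold in any comparison and for ATF4, DDIT3, ATF6, EIF2AK3, ERN1, XBP1 and HSPA5, and outside the members for PRMT1, the 3 highest and 3 lowest other pathway genes by mean difference and any eIF2 kinase past the line, except 1 gene that is not reported here. ASNS, CALR, HSP90B1 and pathway genes named beside a count were added after their values were seen.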

Additional observations from a re-analysis of the deposited data

How the results depend on the processing

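Of the calls past 1.5-fold among members, 7 of 13 in KD1, 5 of 12 in KD2 and 5 of 7 between the knockdowns held under the 9 alternatives applied to single genes (all but no filter, every probe and 2-fold). As said above, not all of these 9 could move every member. No member past the line changed sign under them. Where arrays are scaled differently, all differences move together: the median of all genes moved by 0.64 in KD1 and 0.29 in KD2 with spike-in scaling, by 0.41 and 0.10 with the deposited value table, which is not scaled, and by 0.11 and -0.15 with median scaling, where 6.05% of all genes were higher in KD2 and 18.1% lower. A constant leaves the distance of a branch median from that of all genes as it is (ATF4 branch 0.25 in KD1 and 0.02 in KD2, ER branch 0.17 and 0.22). Without filter and floor these were 0.37, 0.12, 0.34 and 0.32, and with quantile normalization 0.34, 0.10, 0.21 and 0.29.

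The ATF4 branch median in KD1 was 0.82 with spike-ins and 0.60 with the deposited table, and the ER branch median 0.74 and 0.51. In KD2 the ATF4 branch median was above 0 in 5 settings, at 0.0271 when scaled on probes above background on all arrays, 0.0764 with quantile normalization, 0.26 with spike-ins, 0.0032 with normexp and 0.0764 with the deposited table. Between the knockdowns the ER branch median was -0.0473 when scaled on probes above background. Counts past the line in KD1 were 14 (ATF4 branch) and 11 (ER branch) with spike-ins, and 2 and 1 at 2-fold. Of all genes in KD1, 48.4% were higher and 1.97% lower with spike-ins, and 4.19% and 3.57% at 2-fold. In KD2 the ER count was 3 with median scaling and with normexp, and at 2-fold 1 in each branch. Of all genes in KD2, 6.05% were higher and 18.1% lower with median scaling. The shares were 4.1% and 5.01% with normexp, and 2.89% and 2.48% at 2-fold. Between the knockdowns the counts were 7 and 5 with median scaling, 8 and 6 with spike-ins, 7 and 5 with the deposited table, and 0 and 1 at 2-fold. Of all genes, 21.2% were higher and 3.92% lower in KD1 than in KD2 with median scaling, and 27.0% and 3.12% with spike-ins. With the deposited table these shares were 24.5% and 3.47%, and at 2-fold 2.28% and 2.59%. Apart from the scale constants the cause was not tested.

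No paired analysis was possible because each group has 1 array. Members near background (ERO1LB, EIF2AK3, EDEM1, PCK2 and SEL1L) are the least certain.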
